A study of Mus musculus with 36 samples.

Results

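The 10 genes described here are Fgf9, the receptor genes Fgfr1 and Fgfr2, the transcription factor genes Etv4 and Etv5, and the feedback genes Spry1, Spry2, Spry4, Dusp6 and Il17rd. They were taken by gene symbol, 10 of the 21699 genes in the count table of each stage, and all 10 passed the filter on low counts at both stages. FGF9 is a secreted ligand that binds FGF receptors together with heparan sulphate. The activated receptors signal through RAS and the kinases MEK and ERK, which raise transcription of Etv4 and Etv5 and of genes whose products dampen the same route. Those dampeners include the Sprouty proteins, which act on receptor to RAS signalling, the phosphatase DUSP6, which removes phosphate from ERK, and the membrane protein IL17RD (also called SEF). In the fetal gonad, FGF9 is known for its part in testis formation, where it supports Sertoli cells and acts against the ovarian programme, and FGFR2 is its best described gonadal receptor.

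The data are bulk RNA-seq read counts from mouse gonads of 4 genotypes at the embryonic stages E11.5 and E12.5 (days after conception), with 3 libraries per genotype and stage, or 24 of the 36 samples of the series. XX control and XY control gonads are labelled WT. XX KO and XY KO gonads, labelled MiRC1 mutant, carried the Cre transgene Tg(CAG-cre)1Nagy and had the miR-17-92 microRNA cluster deleted on both alleles (del/del), the floxed allele coming from a C57BL/6 × 129S4/SvJae background. The CAG promoter drives Cre throughout the embryo, so the deletion was not limited to the gonad or to any cell type, and whether the controls carried Cre is not given in the sources used here. Each library pooled 2 pairs of gonads. The E11.5 libraries came from gonads with the mesonephros attached and the E12.5 libraries from isolated gonads, prepared with another kit, so no test was made between stages. Whether pools of the same genotype shared a litter is not stated, and p-values measure the spread between these pools.

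Library totals ran from 17150620 to 34077443 counts at E11.5 and from 11877379 to 44155275 at E12.5. X- and Y-linked genes matched the labelled sex in 24 of 24 libraries. Mir17hg, the host gene of the cluster, was higher in every KO library, at 98.2 to 154 CPM (counts scaled to a library of 1000000) against 17.6 to 44.6 in the controls at E11.5 and at 66.7 to 83.8 against 13.4 to 37.3 at E12.5. These are counts over the whole gene and do not check the deleted stretch, for which the study reported an absence of reads in KO gonads. Of the 24 libraries, 3 lay closer to another genotype than to their own. XY control replicate 2 at E11.5 had a mean correlation of log2 CPM of 0.987 with the XX controls and 0.982 with its own group, and XX KO replicate 2 at E12.5 had 0.984 with the XY KO libraries and 0.979 with its own. For XX KO replicate 1 at E11.5 the gap was small, 0.987 with the XY KO libraries and 0.986 with its own group. Results that rest on any of them are given with and without it. The gonadal somatic markers (Wt1, Nr5a1, Gata4 and 6 others) were present in every library, with summed levels of 1277 to 1718 CPM at E11.5 and 1657 to 2246 CPM at E12.5 (4 of 9 were higher and 2 lower in XY KO than in XY control at E12.5), while the adult globin genes Hba-a1 and Hbb-bs were at or under 3 counts throughout.

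The cluster makes 6 microRNAs that fall into 4 seed families, shown here because they are what the deletion removes. The mature sequences are from RefSeq (GRCm38.p6, chromosome 14, plus strand), with the seed (bases 2 to 8) in capitals. The first pair shares 1 seed, miR-18a-5p has its own, the next pair shares another, and miR-92a-3p has the fourth.
mmu-miR-17-5p (chr14:115043684-115043706): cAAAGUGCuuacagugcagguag
mmu-miR-20a-5p (chr14:115044183-115044205): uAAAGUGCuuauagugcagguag
mmu-miR-18a-5p (chr14:115043867-115043889): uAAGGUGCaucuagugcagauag
mmu-miR-19a-3p (chr14:115044048-115044070): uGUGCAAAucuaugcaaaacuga
mmu-miR-19b-3p (chr14:115044358-115044380): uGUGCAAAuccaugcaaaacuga
mmu-miR-92a-3p (chr14:115044476-115044496): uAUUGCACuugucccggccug

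Of the 10 genes, 2 held a match to any of these seeds in their longest annotated 3′ UTR, Il17rd with 3 matches and Spry4 with 2 (1 for miR-17 and 1 for miR-19). The letters searched on the coding strand were GCACTTT (miR-17 and miR-20a), GCACCTT (miR-18a), TTTGCAC (miR-19) and GTGCAAT (miR-92a). Among 21021 annotated genes, 11.77%, 7.811%, 11.46% and 6.565% held the respective match and 28.85% held any of them. None of the 5 matches was an 8mer, that is, a seed match followed by an A, a class found in 11.35% of genes. The 3′ UTR of Il17rd is long, at 5900 bases, and that of Spry4 has 3559, against a median of 1652.5 for the 10 genes and 961 for all. The Il17rd sites are printed because this gene held the most matches of the 10 and was lower in XY KO gonads at E12.5. The match is in capitals, all on chromosome 14, plus strand, GRCm38. A match is a string of letters and was not tested as a binding site.
Il17rd, miR-18 match (chr14:27102717-27102739): ggatttcccttctagGCACCTTt
Il17rd, miR-18 match (chr14:27104240-27104262): gaaaacagtaacataGCACCTTg
Il17rd, miR-92 match (chr14:27105457-27105479): atgtttttatgtgtgGTGCAATt

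In XY KO gonads, the loss of the cluster went with lower levels of most of these genes. At E11.5, 5 of the 10 were lower than in XY controls (Etv4, Etv5, Spry1, Spry4 and Dusp6) and 0 higher, by edgeR's quasi-likelihood test with a false discovery rate (FDR) under 0.05 over all genes tested. Over the 14217 genes tested, 6.81% were lower and 5.88% higher. The 10 genes were chosen with earlier results of these data known, so setting them beside all genes is a description and no test. By E12.5, 7 of the 10 were lower (Fgf9, Etv4, Etv5, Spry1, Spry4, Dusp6 and Il17rd) and 1, Fgfr2, was higher, against 10.3% lower and 10.3% higher among 14348 genes. The median log2 fold change of the 10 genes came to -0.39 in the earlier stage and to -0.83 in the later, where the medians over all genes were -0.03 and -0.01. The libraries of XY KO and XY control did not overlap for 7 of the 10 genes at E11.5, a pattern seen in 28.5% of all genes in either direction, and for 8 of the 10 at E12.5, seen in 39.1%. At E11.5 the number of all genes called in XY KO, 1804, became 2899 without XY control replicate 2, with 4 members, 978 without XY control replicate 1, with 6, and 814 and 925 without XY KO replicates 1 and 2, with 4 and 3.

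XX KO gonads shared part of this. Against XX controls, Etv4 was the 1 gene called lower at E11.5 (1.46% of all genes were lower, 1.81% higher), and Etv4 and Etv5 were the 2 called lower at E12.5 (1.85% lower, 3.42% higher). No member was called higher by edgeR in XX KO gonads at either stage, and DESeq2 called Fgfr1 higher at E12.5. The number of all genes called in this comparison at E12.5, 755 with all libraries, depended on single libraries. It rose to 1680 without XX KO replicate 2, with 2 members lower again, and fell to 35 and 84 with XX control replicate 1 or 2 left out and to 118 when the fit lacked XX KO replicate 3, each with 0 members called. At E11.5, where it was 465, it ran from 143 to 663 over the libraries left out, with 0 to 2 members called.

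The sexes of the controls already differed. XX controls had lower Fgf9 and Spry4 than XY controls at E11.5, 2 of 10 genes where 0.528% of all genes were lower and 0.359% higher. At E12.5, 6 of the 10 were lower in XX controls (Fgf9, Etv5, Spry1, Spry4, Dusp6 and Il17rd) and Fgfr2 was higher, against 12.4% and 11.4% of all genes. Libraries of the control sexes did not overlap for 5 of the 10 at E11.5 and 9 at E12.5, a pattern seen in 17.4% and 36.6% of all genes. Without XY control replicate 2, the library close to the XX controls, 4 of the 10 were called at E11.5, with Spry2 lower (FDR 0.0383) and Fgfr2 higher (FDR 0.0423) in addition. The same change raised the number of genes called in that comparison from 126 to 2505, whereas it fell to 71, 72 and 56 without XX control replicates 1, 2 and 3 and to 62 without XY control replicate 3, with 1, 0, 0 and 0 members called.

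In XX KO against XY KO, edgeR called 0 of the 10 at either stage, as did DESeq2, where 0.0844% of all genes were called at E11.5 and 0.153% at E12.5 in either direction. At an unadjusted p under 0.05, 1 gene differed at E11.5 and 3 at E12.5. Without XX KO replicate 2, the library close to the XY KO group, Il17rd was called lower in XX KO at E12.5 (log2 fold change -0.68, FDR 0.0272), and the number of all genes called rose from 22 to 1828. At E11.5, where 12 genes were called, it was 33 without XX KO replicate 1 and 202 without XY control replicate 2, with 0 members called in both. A missed threshold does not show that the 2 KO groups were alike.

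**Figure D1:**
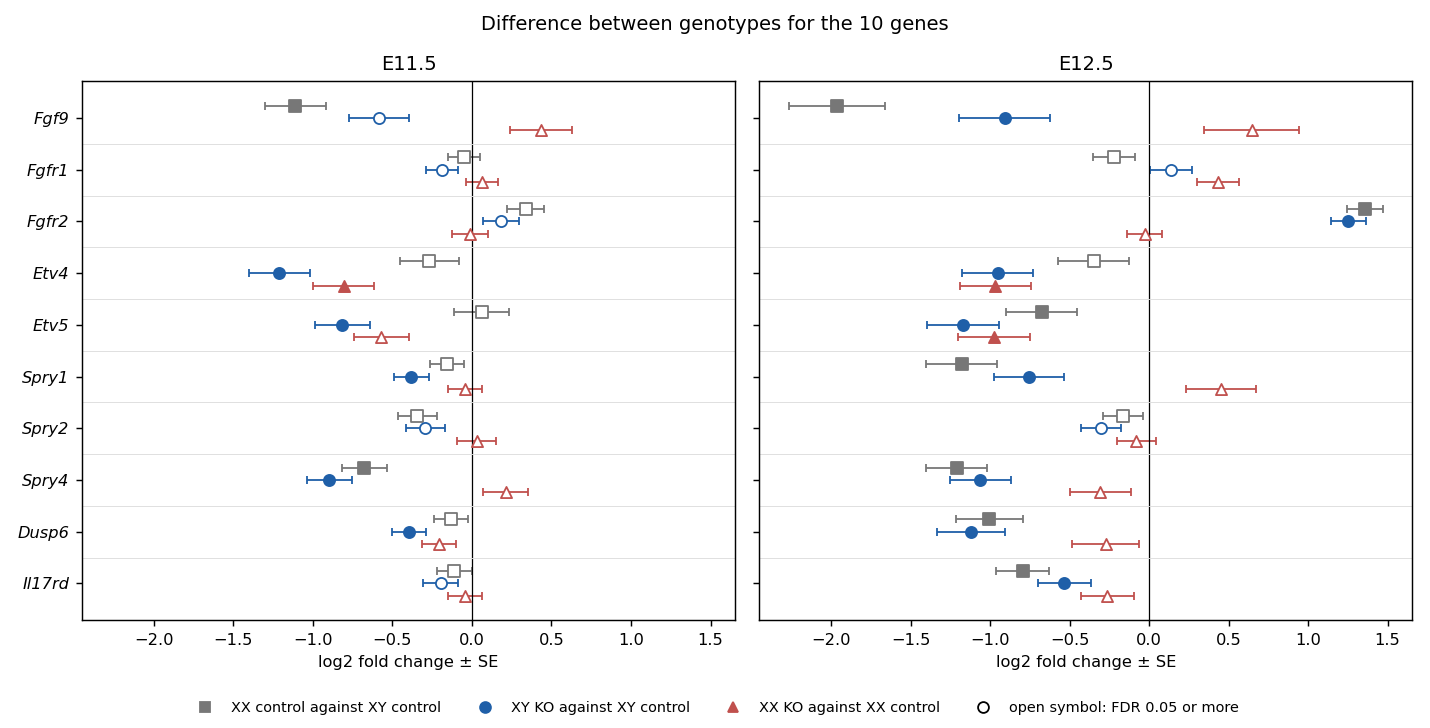
Log2 fold change (x axis) of each of the 10 genes (y axis) in XX control against XY control (squares), XY KO against XY control (circles) and XX KO against XX control (triangles) at E11.5 and E12.5, with bars of 1 standard error from the edgeR fit and filled points for an FDR under 0.05. In XY KO against XY control at E12.5, 7 genes lie to the left of 0 with filled points and Fgfr2 lies to the right, at 1.25.

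Fgf9 (ENSMUSG00000021974, chr14:58070547-58112720, plus strand, GRCm38) was the ligand gene of the set and its least abundant member. At E11.5 the XY control libraries held 10.98, 13.8 and 17.0 CPM and the XX control libraries 6.74, 6.28 and 6.36 CPM, with no overlap. The XX control level was 2.16-fold lower (log2 fold change -1.11 ± 0.19, standard error, FDR 0.0083), a call that ended without XX control replicate 2 or 3 (FDR 0.0546 and 0.055) or XY control replicate 3 (0.0668). XY KO libraries held 7.89, 9.23 and 10.8 CPM, all below the XY controls, but the difference did not pass the threshold (log2 fold change -0.58 ± 0.19, FDR 0.0532). It passed with DESeq2 (FDR 0.0272) and without XY control replicate 1 (FDR 0.0331), XX KO replicate 1 (0.0484) or XY KO replicate 3 (0.0491). In XX KO the values were 7.06, 10.4 and 8.67 CPM, all above the XX controls, with a difference that did not pass (0.43 ± 0.19, FDR 0.287).

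At E12.5 Fgf9 stood at 12.9, 17.9 and 14.2 CPM in XY controls. The XX controls, at 3.04, 2.47 and 6.13 CPM, were lower by 1.96 ± 0.30 on the log2 scale (FDR 0.000204). XY KO libraries, at 6.02, 7.36 and 10.4 CPM, were also all below the XY controls (log2 fold change -0.91 ± 0.29, FDR 0.0357), and XX KO libraries held 6.31, 5.89 and 5.85 CPM. XX KO did not differ from XX control by the test (0.65 ± 0.30, FDR 0.208), and the groups overlapped through XX control replicate 3. The counts behind these values were few, from 49 to 413 per library. The E12.5 call in XY KO ended when 1 of 5 libraries was left out, namely XY control replicate 1, 2 or 3 (FDR 0.0502, 0.146 and 0.0581) or XY KO replicate 1 or 2 (0.134 and 0.113). Without XX control replicate 3 the difference in XX KO was called (log2 fold change 1.12, FDR 0.0271).

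The KO and control levels of Fgf9 at E12.5 differed with opposite signs in XY and XX gonads, and the difference between the sexes was itself tested. The interaction, the change in XY minus the change in XX, was -1.55 ± 0.41 on the log2 scale (FDR 0.0217). It was no longer called without XX control replicate 1 or 2 (FDR 0.0594 and 0.0547), XY control replicate 2 (0.0594) or XY KO replicate 1 or 2 (0.0505 and 0.0561). In mean CPM, the controls stood at 14.99 ± 2.61 (SD, n = 3) in XY and 3.88 ± 1.97 in XX, and the KO groups at 7.93 ± 2.25 and 6.01 ± 0.257, between the 2 control means.

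Fgfr2 (chr7, minus strand) encodes the receptor with the lowest FDR between the control sexes among the 10 genes at E12.5, in the opposite direction to Fgf9. At E12.5 the XY control libraries held 105, 93.3 and 112 CPM, and every other library lay between 227 and 274 CPM. XX controls, at 274, 265 and 255 CPM, were higher than XY controls by 1.36 ± 0.11 on the log2 scale (FDR 5.09e-07). XY KO libraries, at 269, 243 and 227 CPM, were higher by 1.25 ± 0.11 (FDR 1.55e-06), a 2.38-fold level. XX KO libraries, at 254, 258 and 267 CPM, overlapped the XX controls (log2 fold change -0.03). The interaction was 1.28 ± 0.16 (FDR 6.09e-05), and these 3 calls held in every alternative run. At E11.5, mean levels were 174 ± 12.45 CPM in XX control, 138 ± 14.8 in XY control, 172 ± 17.3 in XX KO and 156 ± 20.8 in XY KO, and no comparison passed with all libraries. Fgfr2 libraries of XX and XY controls did not overlap there (0.34 ± 0.11, FDR 0.163).

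Fgfr1, which encodes the other receptor, showed no difference called by edgeR with all libraries. Its group means lay between 257 and 295 CPM at E11.5 and between 144 and 194 CPM at E12.5. The largest change at E12.5 was in XX KO, where 164, 212 and 207 CPM stood above the 147, 139 and 145 CPM of XX controls without overlap (0.43 ± 0.13, FDR 0.0721). It was called by DESeq2 (FDR 0.0322) and without XX KO replicate 1 (0.0331).

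**Figure D2:**
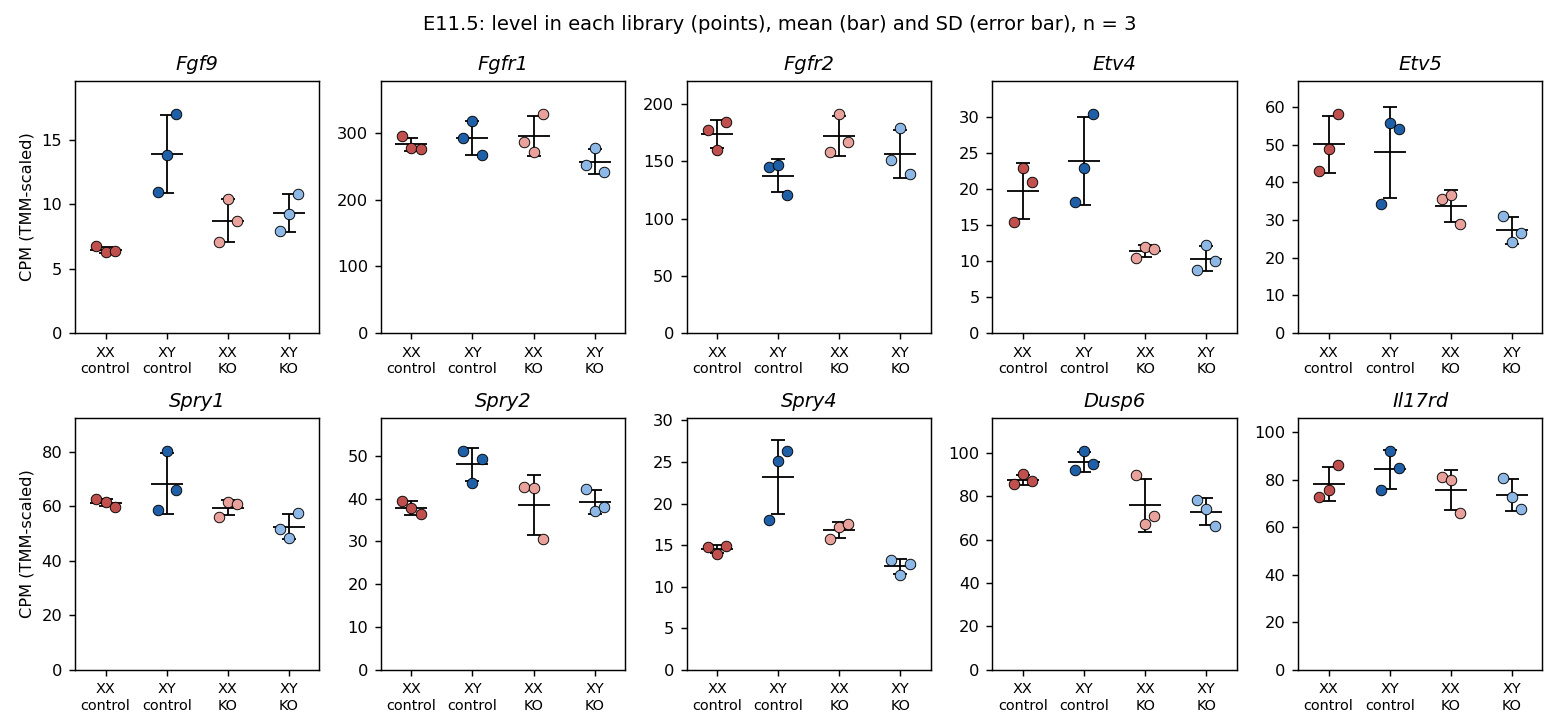
Level in CPM (y axis, from 0) of each of the 10 genes in the 12 libraries at E11.5, 1 panel per gene, by genotype (x axis), with points for libraries and a bar for the mean with 1 SD (n = 3). The Etv4 points of both KO groups, at 8.74 to 12.2 CPM, all lie below those of both control groups, at 15.4 to 30.4 CPM.

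Etv4 (chr11:101769742-101785371, minus strand) and Etv5 (chr16:22381309-22439719, minus strand) encode ETS factors of the PEA3 subfamily, transcribed in response to FGF and ERK signalling in many embryonic tissues. Etv4 was lower in KO gonads of both sexes at both stages. At E11.5, XY control libraries held 18.2, 23.0 and 30.4 CPM and XY KO libraries 8.74, 12.2 and 10.05 CPM, a fall of 1.21 ± 0.19 on the log2 scale (FDR 0.00129). XX controls held 15.4, 22.8 and 21.0 CPM and XX KO 10.4, 11.99 and 11.7 CPM (log2 fold change -0.81 ± 0.19, FDR 0.033). The KO and control libraries did not overlap in either sex.

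At E12.5 the Etv4 values were 21.0, 33.3 and 23.5 CPM in XY controls and 9.94, 14.0 and 16.2 CPM in XY KO (log2 fold change -0.95 ± 0.22, FDR 0.00692). In XX controls they were 20.7, 22.7 and 17.8 CPM and in XX KO 9.79, 13.0 and 8.43 CPM (-0.97 ± 0.22, FDR 0.0276). Again neither sex showed overlap. The sexes of the controls did not differ by the test at either stage (-0.27 with FDR 0.46 at E11.5, -0.35 with FDR 0.302 at E12.5), which sets Etv4 beside Fgfr1 and Spry2 as the members not called between control sexes with all libraries. The interaction at E12.5 was 0.02 ± 0.31 (FDR 0.982). The calls in XY KO held in every alternative at both stages. Those in XX KO did not: at E11.5 the call ended without XX control replicate 2 or 3 (FDR 0.169 and 0.11) or any of XX KO replicates 1, 2 and 3 (0.102, 0.0638 and 0.0908), and at E12.5 without XX control replicate 1 or 2 (0.0872 and 0.125) or XX KO replicate 1 or 3 (0.0606 and 0.127).

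Etv5 was likewise lower in KO gonads, short of the threshold in XX KO at E11.5, with a sex difference added at E12.5. At E11.5, XY controls held 34.2, 55.8 and 54.1 CPM and XY KO 31.0, 24.1 and 26.6 CPM (log2 fold change -0.82 ± 0.17, FDR 0.00843). The XX KO libraries, at 35.6, 36.6 and 28.96 CPM, were all below the XX controls, at 43.1, 49.0 and 58.2 CPM, without passing the test (-0.57 ± 0.17, FDR 0.0943). DESeq2 called this difference (FDR 0.0362), as did edgeR without XY control replicate 1 (0.026) and in a fit of the 6 XX libraries alone (0.0385).

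At E12.5, Etv5 was at 150, 175 and 145 CPM in XY controls and at 54.4, 69.8 and 84.7 CPM in XY KO, a 2.25-fold fall (log2 fold change -1.17 ± 0.23, FDR 0.00178). XX controls held 116, 112 and 66.4 CPM and XX KO 49.8, 62.4 and 37.3 CPM (-0.97 ± 0.23, FDR 0.028). XX controls were lower than XY controls (-0.68 ± 0.22, FDR 0.0407), a call that ended without XX control replicate 3 (FDR 0.162), XY control replicate 1, 2 or 3 (0.0748, 0.133 and 0.0604), XX KO replicate 1 (0.0506) or XY KO replicate 2 (0.0535), and with library size as the only scaling (0.0529) or no filter on low counts (0.0551). The call in XX KO ended without XX control replicate 1 or 2 (0.107 and 0.126) or XX KO replicate 1 or 3 (0.0541 and 0.129) and in a fit of the 6 XX libraries alone (0.0666). The interaction was -0.19 ± 0.32 (FDR 0.739).

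**Figure D3:**
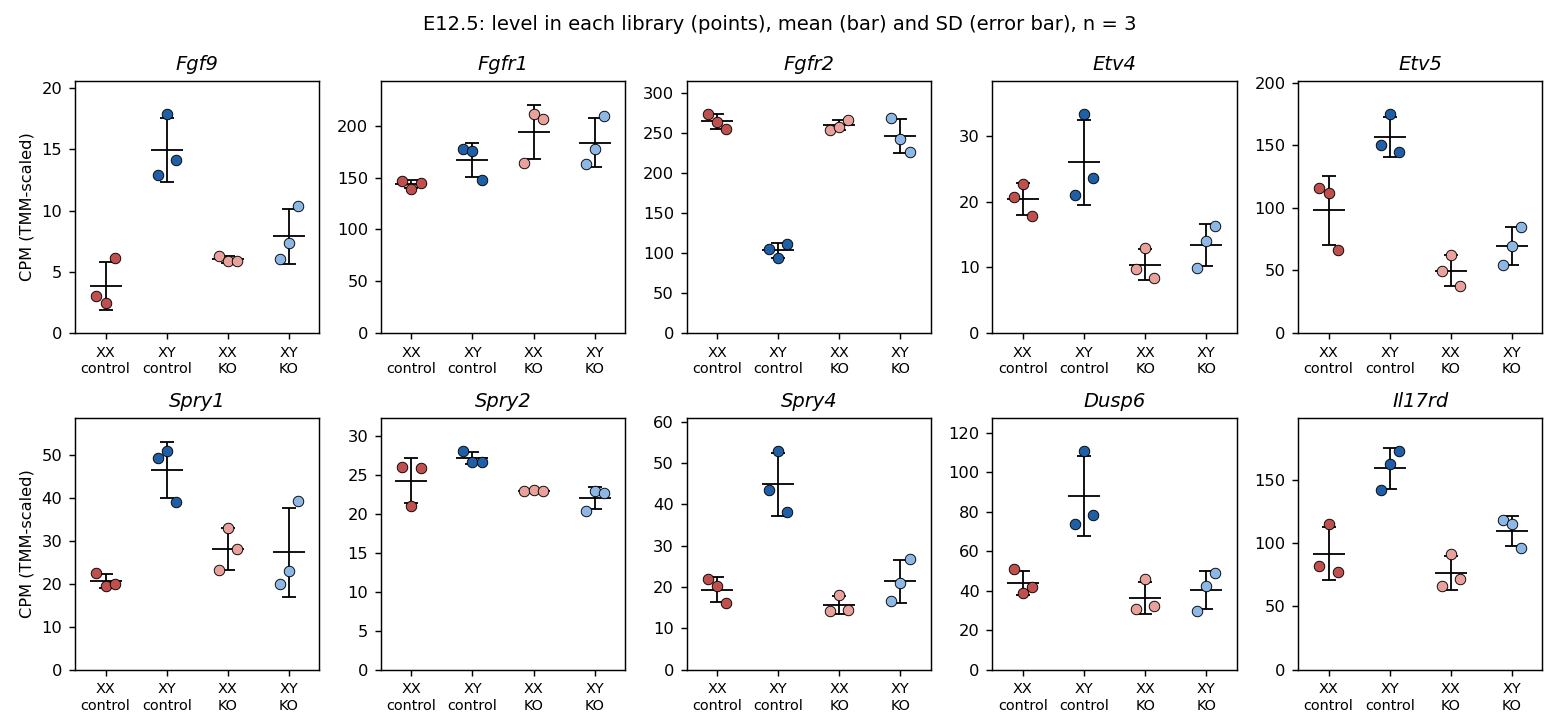
Level in CPM (y axis, from 0) of each of the 10 genes in the 12 libraries at E12.5, 1 panel per gene, by genotype (x axis), with points for libraries and a bar for the mean with 1 SD (n = 3). XY controls stand apart from the other 3 groups for Fgfr2 (93.3 to 112 CPM, below) and Spry4 (38.1 to 53.0 CPM, above), while for Etv4 both control groups lie above both KO groups.

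The Sprouty gene with the largest fall in XY KO at either stage was Spry4 (ENSMUSG00000024427), which encodes an inhibitor of receptor tyrosine kinase signalling. At E11.5 its level was 18.1, 25.2 and 26.4 CPM in XY controls, 14.8, 13.9 and 14.9 CPM in XX controls, 13.2, 11.4 and 12.8 CPM in XY KO and 15.8, 17.2 and 17.5 CPM in XX KO. XY controls were the highest group without overlap with any other. XY KO was lower than XY control by 0.90 ± 0.14 on the log2 scale (FDR 0.00122), in every alternative run. XX control was lower than XY control by 0.68 ± 0.14 (FDR 0.0306), and this call ended without any of the 3 XX control libraries (FDR 0.113, 0.149 and 0.116), without XY control replicate 3 (0.213) or in a fit of the 6 control libraries alone (0.104). The interaction was -1.11 ± 0.20, short of the threshold (FDR 0.0708). It was called by DESeq2 (FDR 0.000382), with no filter on low counts (0.0464) and without XY control replicate 1 or 2 (FDR 0.00437 and 0.0287).

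At E12.5 Spry4 reached no more than 26.8 CPM outside the XY controls, which held 43.4, 53.0 and 38.1 CPM. The other groups held 21.9, 20.2 and 16.1 CPM (XX control), 16.5, 20.9 and 26.8 CPM (XY KO) and 14.3, 18.1 and 14.6 CPM (XX KO). Both XX control (-1.21 ± 0.19, FDR 0.000278) and XY KO (-1.06 ± 0.19, FDR 0.000976) were lower than XY control on the log2 scale. These comparisons share the XY control libraries. XX KO against XX control gave -0.31 (FDR 0.346).

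Dusp6 (chr10:99263231-99267489, plus strand) encodes the phosphatase that acts on ERK in the cytoplasm. At E11.5 it fell from 92.1, 101.05 and 94.8 CPM in XY controls to 78.5, 74.1 and 66.2 CPM in XY KO, with no overlap (-0.40 ± 0.11 on the log2 scale, FDR 0.024). The call ended without XY control replicate 3 (FDR 0.0578) or XY KO replicate 2 or 3 (0.0679 and 0.088), and in a fit of the 6 XY libraries alone (0.0591). At E12.5 XY controls held 74.1, 111 and 78.6 CPM and XY KO 29.9, 42.5 and 48.9 CPM, a 2.18-fold fall (log2 fold change -1.12 ± 0.21, FDR 0.00145). XX controls, at 50.8, 39.1 and 41.7 CPM, were likewise below XY controls (-1.004 ± 0.21, FDR 0.00264). XX KO libraries, at 30.9, 45.8 and 32.1 CPM, overlapped XX controls (-0.27, FDR 0.446). Both E12.5 calls held in every alternative.

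Spry1 (chr3:37639947-37644598, plus strand) encodes another Sprouty. At E11.5 it was at 58.6, 80.4 and 66.1 CPM in XY controls and at 51.6, 48.5 and 57.4 CPM in XY KO (log2 fold change -0.38 ± 0.11, FDR 0.0325). This was the least firm of the E11.5 calls in XY KO: it ended without XY control replicate 2 or 3 (FDR 0.0821 and 0.0604), without XY KO replicate 1 or 2 (0.101 and 0.127), with no filter on low counts (0.0503) and in a fit of the 6 XY libraries alone (0.126).

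At E12.5 Spry1 was at 49.4, 51.0 and 39.0 CPM in XY controls. In XY KO it was at 19.9, 23.0 and 39.2 CPM, where replicate 3 reached the lowest control library, and the fall of 0.76 ± 0.22 on the log2 scale (FDR 0.0234) was not called without XY control replicate 1 or 2 (FDR 0.0749 and 0.088) or XY KO replicate 1 or 2 (0.0955 and 0.101). XX controls, at 22.4, 19.4 and 19.9 CPM, were lower than XY controls (-1.18 ± 0.22, FDR 0.00112). XX KO libraries, at 23.3, 33.0 and 28.1 CPM, were all above the XX controls, a difference that was not called (0.45 ± 0.22, FDR 0.232). The change in XY minus the change in XX was -1.21 ± 0.31 (FDR 0.0181), a call that ended without XY KO replicate 2 (FDR 0.0526). Spry1 thus joined Fgf9 and Fgfr2 as the 3 members with a called interaction at E12.5, 1 positive and 2 negative, where 5.9% of all genes had a positive and 7.05% a negative one.

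At E11.5 edgeR called the interaction for 0 of the 10 genes, and for 5 of all 14217 (0.0352%) in either direction. At an unadjusted p under 0.05 it had 3 of the 10, and the share of all genes there was not computed. DESeq2 called 2 of the 10, Fgf9 (FDR 0.04) and Spry4, and 167 of all 14217. Without XY control replicate 2, edgeR called 231 of all genes, with 1 member, Spry4. At E12.5 the interactions of Spry4 (-0.76, FDR 0.0852) and Dusp6 (-0.85, FDR 0.0797) did not pass the test, and both did without XY KO replicate 3 (FDR 0.0259 and 0.0408).

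Spry2, the third Sprouty, was not called in any comparison with all libraries. Its E12.5 libraries held 28.1, 26.6 and 26.7 CPM in XY controls and 20.3, 23.0 and 22.7 CPM in XY KO, which did not overlap (log2 fold change -0.30 ± 0.12, FDR 0.105). At E11.5 the means were 48.1 ± 3.90 CPM in XY control and 39.2 ± 2.77 in XY KO (-0.29, FDR 0.124).

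Il17rd (chr14:27038941-27107286, plus strand), the gene with 3 seed matches, passed the test at E12.5. At E11.5 its group means lay between 73.6 and 84.3 CPM and no comparison passed. At E12.5 it was at 142, 163 and 173 CPM in XY controls, 82.3, 116 and 77.1 CPM in XX controls, 119, 115 and 96.4 CPM in XY KO and 66.1, 91.5 and 71.3 CPM in XX KO. XX control was lower than XY control (-0.80 ± 0.17, FDR 0.00266), and XY KO was lower by 0.53 ± 0.17 on the log2 scale (FDR 0.0348). The latter call ended without XY control replicate 2 or 3 (FDR 0.0975 and 0.0924) or XY KO replicate 2 or 3 (0.0703 and 0.116). Spry4, the other gene with matches, was also lower in XY KO, at both stages.

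Per exon length, the order of the 10 genes in XY controls can be given. In CPM per kilobase of exon (FPKM), the E11.5 means were 30.6 for Dusp6, 29.6 for Fgfr1, 23.5 for Spry1, 23.0 for Spry2, 13.3 for Fgfr2, 11.7 for Etv5, 7.69 for Etv4, 7.67 for Il17rd, 4.88 for Spry4 and 3.00 for Fgf9. At E12.5 they were 38.2 for Etv5, 28.1 for Dusp6, 16.9 for Fgfr1, 16.0 for Spry1, 14.5 for Il17rd, 13.0 for Spry2, 9.43 for Spry4, 8.36 for Etv4 and 3.22 for Fgf9, with Fgfr2 between Spry2 and Spry4. Fgf9 was the lowest at both stages, and neighbours such as Etv4 and Il17rd at E11.5 lay closer than their spread.

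Across the 12 libraries of E12.5, several of the feedback genes and the ETS factors varied together. Pearson's r of log2 CPM was 0.957 for Spry4 and Dusp6, 0.951 for Etv4 and Etv5 and 0.898 for Etv5 and Spry4. Fgf9 was nearest to Spry1 (0.829) and farther from Etv4 (0.304) and Etv5 (0.383). Fgfr2 had negative values, with -0.931 for Spry4, -0.903 for Dusp6 and -0.823 for Fgf9. At E11.5 they were 0.826 for Etv4 and Etv5, 0.815 for Spry1 and Spry4 and -0.652 for Fgf9 and Fgfr2. These are descriptions over 12 libraries that include the genotype differences above. The 5 genes with the highest correlation with Fgf9 over the 12 libraries were Col9a2 (0.922), Lefty1 (0.910), Fbxo17 (0.894), Chst1 (0.891) and Mall (0.889) at E11.5, and Fbln7 (0.957), Fhl2 (0.938), Enpep (0.928), Col14a1 (0.927) and Olfml3 (0.926) at E12.5. None of the members was among them.

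Another 96 genes were taken in 6 lists. These held FGF family genes, receptors and coreceptors, and heparan sulphate enzymes. They also held adaptors and the RAS to ERK cascade, ERK response transcription factors and ERK feedback inhibitors. Of the 96, 77 were tested at each stage. At E11.5, 3 were higher and 5 lower in XY KO than in XY control, or 3.9% and 6.49%, beside the 5.88% and 6.81% over all genes given above. Sulf1, which encodes an enzyme that trims sulphate from heparan sulphate, rose from 352, 379 and 352 CPM to 510, 508 and 510 CPM (0.50 on the log2 scale, FDR 0.00422). Hs2st1, a heparan sulphate sulphotransferase gene (0.38, FDR 0.0172), and Rasa2, a RAS inhibitor gene (0.31, FDR 0.0455), were also higher, and the Rasa2 call held in 6 of 19 alternatives (FDR 0.166 without XY KO replicate 1, where it was highest). The Hs2st1 call ended without XY control replicate 1 (FDR 0.0682) or XY KO replicate 1 or 2 (0.0524 and 0.0669) and in a fit of the 6 XY libraries alone (0.0736). The lower genes included Frs3, an FGF receptor adaptor gene (-0.89, FDR 0.00535), Dusp4, an ERK phosphatase gene (-0.71, FDR 0.00522), Hs6st1, another heparan sulphate sulphotransferase gene (-0.70, FDR 0.00087), and Spred3, a Sprouty-related inhibitor gene (-0.63, FDR 0.0039). In XX KO against XX control at E11.5, Fgfrl1, the gene of a receptor-like protein that lacks the kinase domain, was higher (0.36, FDR 0.029) and Spred3 lower (-0.50, FDR 0.0328). That was 1.3% of the 77 in each direction, against 1.81% higher and 1.46% lower over all genes. The Fgfrl1 call held in 12 of 19 alternatives: it ended without XX control replicate 1, 2 or 3 (FDR 0.0713, 0.0931 and 0.12), without XX KO replicate 1 or 3 (0.102 each), with library size as the only scaling (0.0559) and with no filter on low counts (0.0513). The Spred3 call ended without any 1 of the 6 XX libraries (0.16 at most, without XX control replicate 2).

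At E12.5, 8 of the 77 were higher and 12 lower in XY KO than in XY control, or 10.4% and 15.6% where all genes had 10.3% in each direction. In XX control against XY control 8 were higher and 18 lower, or 10.4% and 23.4% where all genes had 11.4% and 12.4%. The shares of higher genes were thus near the background. By list, XY KO had 1 of 9 tested FGF family genes higher and 4 lower, and 3 of 6 receptors and coreceptors higher and 1 lower. It had 2 of 11 heparan sulphate enzymes higher and 2 lower, 1 of 19 cascade genes lower and 2 of 15 transcription factors lower. Of 17 feedback inhibitors, 2 were called in each direction. The largest rises were in Sulf1 (2.06, FDR 1.92e-07), Flrt2, whose product binds FGF receptors (1.64, FDR 1.79e-05), Fgf11 (1.09, FDR 0.00021) and Dusp5, which encodes a nuclear ERK phosphatase (0.97, FDR 0.00349). Sulf1 was at 183, 168 and 207 CPM in XY controls and at 615 to 892 CPM in the other 9 libraries. The largest falls were in Fgf13 (-2.31, FDR 1.14e-06), Dusp4 (-2.12, FDR 0.000164), Fgf10 (-1.96, FDR 0.000566) and Fgf18 (-1.75, FDR 4.33e-05). All of these rises and falls were also called, with the same sign, in XX control against XY control. There the rises were 1.86, 0.87, 1.34 and 1.62 and the falls -2.26, -1.70, -1.87 and -1.63, in the order above. Both comparisons share the XY control libraries. Dusp4 was at 57.6, 79.7 and 55.3 CPM in XY controls, 24.7, 22.8 and 11.6 in XX controls, 10.2, 15.5 and 18.6 in XY KO and 10.2, 14.7 and 7.37 in XX KO. Its lowest group was XX KO and its highest XY control, without overlap between those groups. In XX KO against XX control Dusp4 was not called (-0.87, FDR 0.104), and 3 of 19 alternatives called it.

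In XX KO against XX control at E12.5, 5 of the 77 were higher and 1 lower, or 6.49% and 1.3% where all genes had 3.42% and 1.85%. The named genes were the ERK response genes Jun (1.07, FDR 0.037) and Egr1 (0.99, FDR 0.0398), Fgfrl1 (0.60, FDR 0.0309) and Sulf2, a second heparan sulphate sulphatase gene (0.54, FDR 0.0456), all higher, and Hs6st2, a heparan sulphate sulphotransferase gene, which was lower (-0.59, FDR 0.0413). Egr1 and Jun are known as early targets of ERK signalling. The Egr1 libraries held 8.71, 10.7 and 10.2 CPM in XX controls and 13.0, 29.2 and 16.3 CPM in XX KO, the highest being replicate 2. All 5 of these calls ended when single libraries were left out, with an FDR of up to 0.171 for Jun (XX control replicate 2), 0.134 for Egr1 (XX control replicate 1), 0.144 for Fgfrl1 (XX control replicate 2), 0.211 for Sulf2 and 0.166 for Hs6st2 (both XX KO replicate 3). Those of Jun and Egr1 also ended when XX KO replicate 2 was left out (0.0568 and 0.0709).

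**Figure D4:**
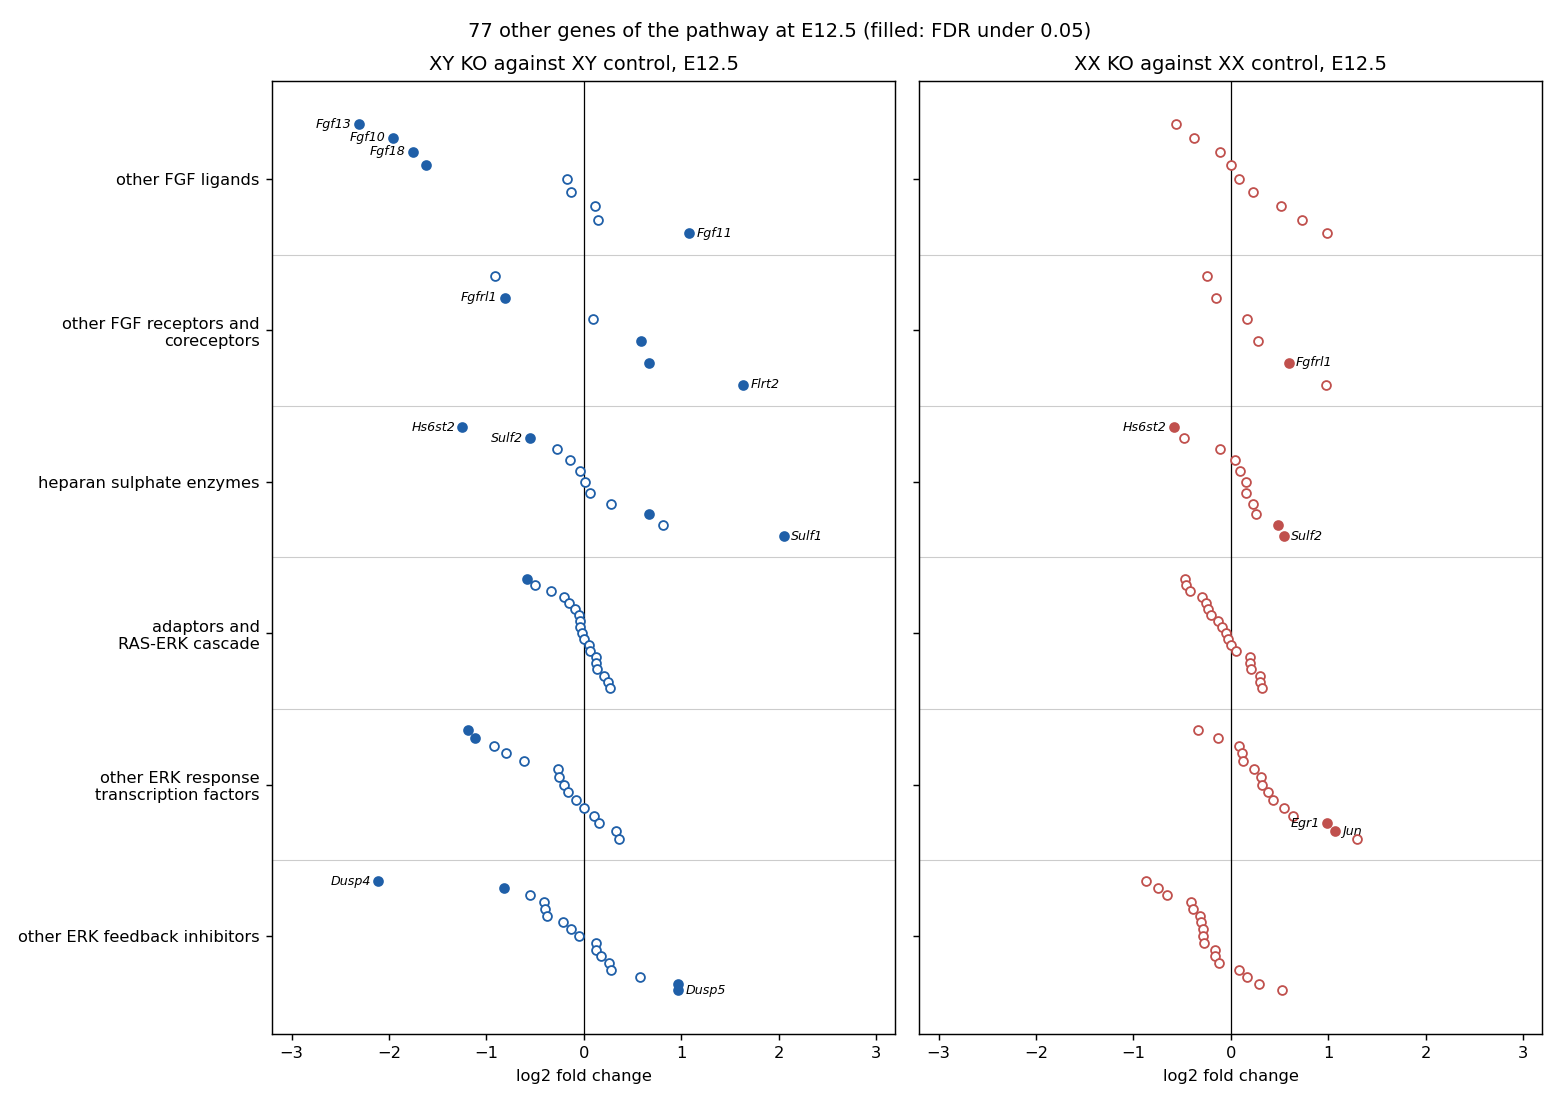
Log2 fold change (x axis) of the 77 other tested genes, by list (y axis), in KO against control of each sex at E12.5. Filled points mark an FDR under 0.05 and the named genes are labelled. The FGF family genes are in the row labelled other FGF ligands. In XY gonads filled points lie on both sides of 0, from -2.31 for Fgf13 to 2.06 for Sulf1, and fewer points are filled in XX gonads, 6 of 77.

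Markers of gonadal cell types moved with several of these results, and in bulk gonads fewer cells of a type cannot be told apart from less RNA per cell. Sertoli cell markers, summed, ran from 258 to 460 CPM in XY controls at E11.5, 169 to 215 in XX controls, 154 to 167 in XX KO and 123 to 150 in XY KO, with 9 of 10 lower and 1 higher in XY KO than in XY control. At E12.5 the sums were 1988 to 2712 CPM in XY controls and 154 to 229 CPM in all other libraries, and 10 of 10 markers were lower in XY KO. Their most abundant gene there, Amh, averaged 951 CPM in the XY controls against 2.29 CPM in the XY KO libraries. Pre-granulosa markers were higher in XY KO at E12.5 for 9 of 10 genes, with sums of 692 to 775 CPM against 157 to 216 in XY controls and 906 to 1165 in XX controls. Fetal Leydig and interstitial markers were lower for 8 of 11 and higher for 1, at 1222 to 1316 CPM against 2304 to 3394, and proliferation genes were lower for 7 of 10, at 2146 to 2220 CPM against 2762 to 3163. These lists separate XY controls from the other 3 groups at E12.5, as do Fgf9, Fgfr2, Etv5, Spry2, Spry4, Dusp6 and Il17rd. The share of all genes with that pattern was not computed. In single comparisons with XY controls at E12.5, 36.6% of all genes did not overlap for XX control and 39.1% for XY KO. The part of these lists in the results for the genes described here was not tested.

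The falls of Etv4 and Etv5 in XX KO occurred beside other values. Summed Sertoli markers were at 154 to 167 CPM in XX KO and 169 to 215 in XX controls at E11.5, and at 175 to 187 and 154 to 180 CPM at E12.5, with median log2 fold changes of -0.02 and 0.10. Germ cell markers were lower for 4 of 10 at E12.5, with sums of 447 to 950 CPM in XX KO against 1124 to 1924 in XX controls, and Dazl, their most abundant gene, had means of 294 and 492 CPM. In XY KO 3 of 10 germ cell markers were lower, at 824 to 986 CPM against 1078 to 1348. At E11.5 the XX KO sums of germ cell markers, 130 to 204 CPM, overlapped those of XX controls, 165 to 368. Of the 9 tested, 0 were called in XX KO, with a median log2 fold change of -0.93, and Nanos2 was at or under 3 counts. Pre-granulosa markers at E11.5 were lower in XX KO for 2 of 10, with sums of 423 to 490 CPM against 557 to 578 in XX controls and no overlap. Macrophage markers at E11.5 were lower in XX KO for 2 of 7, at 71.6 to 98.7 CPM against 123 to 139 in XX controls without overlap. In XY KO 2 of 7 were also lower at that stage, at 76.6 to 109.3 CPM against 107.4 to 143.5 in XY controls. At E12.5 fetal Leydig and interstitial markers were higher for 3 of 11, at 825 to 1190 CPM against 609 to 708 without overlap, and mesonephric markers were higher for 4 of 11 tested, at 145 to 233 CPM against 123 to 179. The part of these lists and of germ cells in the Etv4 and Etv5 results was not tested. Mesonephric tubule and duct markers, which bear on tissue carried over at dissection, summed to 97.5 to 215 CPM in XY KO and 153 to 173 CPM in XY controls at E12.5, with 7 of 11 tested markers higher and 2 lower in XY KO, and their part in the Fgfr2 result was not tested.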

How the data were processed

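RNA was extracted from pooled mouse gonads and sequenced as paired reads of 75 bases. Per the labels and the study's methods, the authors mapped reads to mm10 with Subread and made gene counts with featureCounts; versions, annotation, strand setting and the treatment of multimapping reads are not given in the sources used here. The deposited values are raw read counts per gene, 1 table per stage. Another 12 per-sample columns, of a separate Foxl2 experiment, were not used. Column names matched the sample labels.

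Counts were analysed per stage with edgeR 4.0.16 (R 4.3.3): genes with at least 1 CPM in at least 2 of 12 libraries, TMM scaling, a mean per genotype over all 12 libraries, robust quasi-likelihood fits and Benjamini-Hochberg adjustment over all genes tested, FDR under 0.05. Standard errors are the log2 fold change over the square root of F. Levels in CPM used TMM-scaled totals, and levels per length used GENCODE M21 exon lengths (GRCm38, the build named mm10). Overlap means that the ranges of 2 groups of 3 libraries meet, and an exact permutation test of 3 against 3 cannot go below p = 0.1. Low genes such as Fgf9 have more counting error. Seed matches were searched in the longest annotated 3′ UTR of each gene in GENCODE M21.

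Named were all 10 genes, Mir17hg, up to 4 rising and 4 falling called genes of the other lists per KO comparison, the 5 genes most correlated with Fgf9, and the most abundant gene of a marker list that moved with a result. Of 10 marker lists, those for endothelium, macrophages and erythroid cells had at most 2 called genes per comparison, and the macrophage values at E11.5 are given above. Members and lists were chosen with earlier results of these data known. Alternatives were other scalings, filters, DESeq2 1.42.0, fits of 6 libraries, a replicate term and leaving out each library.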

Additional observations from a re-analysis of the deposited data

Results flagged for a closer look

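The change with the deletion differed between XY and XX gonads at E12.5, by the interaction term in edgeR (log2 scale, XY change minus XX change), for 3 of the 10 genes: Fgf9 (-1.55, FDR 0.0217), Fgfr2 (1.28, FDR 6.09e-05) and Spry1 (-1.21, FDR 0.0181).

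Of the 77 other genes tested, 15 had a called interaction, 6 positive (7.79%) and 9 negative (11.7%), where 5.9% and 7.05% of all genes did. The 10 given here are those already named for a call in a KO comparison. Among FGF family genes these were Fgf13 (-2.2, FDR 7.94e-05), Fgf18 (-1.98, FDR 0.000553) and Fgf11 (1, FDR 0.00816). Among receptor and coreceptor genes they were Fgfrl1 (-1.41, FDR 0.000258) and Flrt2 (1.36, FDR 0.00263). The 2 heparan sulphate sulphatase genes had opposite signs, Sulf1 with 1.9 (FDR 1.49e-05) and Sulf2 with -1.09 (FDR 0.00233). The ERK response genes Egr1 (-1.6, FDR 0.008) and Jun (-1.33, FDR 0.0325) and the phosphatase gene Dusp5 (1.26, FDR 0.00818) complete the set. The Jun interaction was called in 10 of 18 alternatives and reached an FDR of 0.0912 without XY control replicate 1.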

How the results depend on the processing

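Of the 28 calls of the 10 genes, all 28 kept their sign and 15 stayed called in every alternative. Leaving out 1 library at a time gave these numbers of the 10 genes called. At E11.5 it was 0 to 4 for XX control against XY control (2 with all libraries), 3 to 6 for XY KO against XY control (5), 0 to 2 for XX KO against XX control (1), 0 for XX KO against XY KO (0) and 0 to 1 for the interaction (0). At E12.5 it was 6 to 7 (7), 5 to 8 (8), 0 to 3 (2), 0 to 1 (0) and 1 to 5 (3). Fits of the 6 libraries compared gave 1, 3 and 2 at E11.5 for the first 3 comparisons and 1 for XX KO against XX control at E12.5. DESeq2 gave 2 for XX KO against XX control and 2 for the interaction at E11.5, and no filter on low counts gave 1 for that interaction. With 8mer matches alone, 0 of the 10 genes held a seed match in place of 2. Over all genes, DESeq2 called 439 in place of 126, 778 in place of 465, 328 in place of 12 and 167 in place of 5 for XX control against XY control, XX KO against XX control, XX KO against XY KO and the interaction at E11.5, and 1456 in place of 755 and 66 in place of 22 for XX KO against XX control and XX KO against XY KO at E12.5. Fits of 6 libraries called 790 in place of 1804 in XY KO at E11.5 and 252 in place of 755 in XX KO at E12.5, and no filter gave 14 in place of 5 for the E11.5 interaction. The causes were not tested.

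The labels do not say that a replicate number marks a shared litter, and same-numbered libraries did not deviate together (median correlation 0.0145 at E11.5 and -0.045 at E12.5, over 18 pairs each). With the replicate number as a block, 2, 6, 1, 0 and 0 of the 10 genes were called at E11.5 and 7, 8, 2, 0 and 3 at E12.5, in the order above. Fgf9 in XY KO at E11.5 was the added call (FDR 0.0434). Depth limits Fgf9 most, with 49 to 413 counts per library at E12.5.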
